A study of Mus musculus with 8 samples.

Results

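9 collagens that build the basement membrane or tie cells and tissue to it were followed across 4 culture conditions of mouse pancreatic cancer cells. They were the collagen IV genes *Col4a1*, *Col4a2*, *Col4a3*, *Col4a4*, *Col4a5* and *Col4a6*, the anchoring fibril collagen *Col7a1*, the transmembrane collagen *Col17a1* and the heparan sulfate collagen *Col18a1*. Members were chosen by gene name, 9 of the 53465 genes in the deposited count table, and all 9 passed the filter on low counts that kept 14301 genes. *Col17a1* and *Col4a6* passed narrowly, *Col17a1* only through the group where it was highest, so its comparisons with that group are given as counts with no test.

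The cells belonged to the pancreatic ductal adenocarcinoma (PDAC) lines B73 and B87, which came from primary tumors in the pancreas of KC-shSmad4 mice. In this model Cre under control of *Ptf1a*, a gene of the pancreatic lineage, activates a reverse tetracycline transactivator, and doxycycline (Dox) then induces a hairpin RNA against *Smad4* together with GFP from a cassette at the *Col1a1* locus. All groups carried these alleles and all were grown on collagen-coated plates. Continuous Dox kept the cells Smad4 off, and culture free of Dox, for 5 days before plating, made them Smad4 on. Treatment began 24 h after plating. Each state was treated for 24 h with 100 pM recombinant TGFβ1 or with 2.5 µM SB505124, which blocks the kinase of the TGFβ type I receptor. This gave 4 groups of 2 libraries, 1 from each line. Loss of Dox and return of Smad4 cannot be told apart here, because each Smad4-on library was also a Dox-free library, and a group with no added TGFβ1 and no inhibitor was not analysed here. Each TGFβ1 change below is against SB505124, so an effect of added TGFβ1 and one of the inhibitor cannot be told apart. The replicates are the lines, and the line is a term in the model. The p-values therefore set each change against the spread that remains once the constant difference between these cultures is removed.

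Collagen IV is the network-forming collagen of all basement membranes. Its alpha chains join in trimers, and the chains of *Col4a1* and *Col4a2* form the trimer found in nearly every tissue, while those of *Col4a3*, *Col4a4* and *Col4a5* form the trimer best known from the kidney glomerulus and those of *Col4a5* and *Col4a6* contribute to another in smooth muscle and some epithelia. Collagen VII, the product of *Col7a1*, assembles into anchoring fibrils that hold the basement membrane to the stroma beneath. Collagen XVII spans the membrane of epithelial cells in the hemidesmosome, and collagen XVIII carries heparan sulfate and releases endostatin. Deposition of such a matrix around carcinoma cells is a known feature of PDAC, and TGFβ, which signals through receptor-activated SMAD proteins and their partner SMAD4, is a known inducer of many matrix genes.

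The 6 collagen IV genes lie in 3 head-to-head pairs on GRCm38, where the starts of the paired genes face away from each other. *Col4a1* (chromosome 8, 11198423 to 11312826, minus strand) and *Col4a2* (chromosome 8, 11312805 to 11449287, plus strand) shared 22 bases at their starts. *Col4a4* (chromosome 1, 82448423 to 82586849, minus strand) and *Col4a3* (chromosome 1, 82586921 to 82722059, plus strand) were 71 bases apart. *Col4a6* (chromosome X, 141165403 to 141474076, minus strand) and *Col4a5* (chromosome X, 141475385 to 141689234, plus strand) were 1308 bases apart. *Col7a1* (chromosome 9, 108953586 to 108984875, plus strand), *Col17a1* (chromosome 19, 47646344 to 47692094, minus strand) and *Col18a1* (chromosome 10, 77052178 to 77166548, minus strand) stand outside these pairs.

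2 stretches are shown because the largest changes fell on the genes beside them. The first is the 250 bases before the *Col7a1* start, from chr9:108953336-108953585 on the plus strand. The second is the 71 bases between the starts of *Col4a4* and *Col4a3*, from chr1:82586850-82586920, read on the minus strand toward *Col4a4*. Both come from the RefSeq promoter table for GRCm38.p6 and run 5′ to 3′. Capitals mark the short SMAD motifs CAGAC and GGCGC on either strand, so that CAGAC on the other strand reads GTCTG.
Col7a1 upstream: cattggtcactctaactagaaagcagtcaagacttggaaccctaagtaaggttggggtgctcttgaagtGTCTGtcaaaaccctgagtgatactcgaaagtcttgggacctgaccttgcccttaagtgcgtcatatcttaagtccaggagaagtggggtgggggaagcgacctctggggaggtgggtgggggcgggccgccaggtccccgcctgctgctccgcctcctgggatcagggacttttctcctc
Col4a4 and Col4a3 between starts: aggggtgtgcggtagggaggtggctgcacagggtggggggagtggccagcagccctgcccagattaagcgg

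The *Col7a1* stretch held 1 CAGAC match, 1 GGGCGG match and 1 CCAAT match, and no GGCGC or TGANTCA, the last being an AP-1 motif. The stretch between *Col4a4* and *Col4a3* was 69.0% G or C and held none of these 5 motifs. Full promoter windows ran from 250 bases before the start to 50 after it. That of *Col7a1* held 1 CAGAC and 1 GGCGC match, and that of *Col4a4* held 1 CAGAC and 4 GGCGC matches. The window of *Col4a1* held 6 GGCGC matches and no CAGAC. Of the 9 members, 8 had an entry in the table, *Col18a1* with 2 start sites. Among all 32851 windows listed, 49.6% held CAGAC, 36.9% GGCGC, 7.8% TGANTCA, 35.7% GGGCGG and 37.4% CCAAT, so a match describes the letters and not a bound site.

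Library totals ran from 18389235 to 23440550 counts, so that 3 counts, the level taken as a detection floor, corresponded to 0.125 to 0.162 CPM, that is, counts divided by the normalized size of their library. *Smad4* itself lay at 33.7, 34.7, 34.9 and 35.5 CPM in the 4 Smad4-off libraries and at 97.4 to 117 CPM in the Smad4-on libraries, as the labels state. Of the ductal carcinoma markers *Krt18* was the most abundant at 592 to 2430 CPM, whereas *Epcam* had only 3 to 39 counts. The fibroblast list summed to 5.84 to 40.5 CPM in B73 and 51.7 to 669 CPM in B87, where it was highest in the Smad4-on TGFβ1 library, 93.8% of it *Col1a1*, the gene at the cassette locus. *Lum* had 0 counts in every library and *Dcn* at most 3, while *Col3a1* had 33 to 833 counts, *Pdgfra* 12 to 154 and *Pdgfrb* 0 to 653, and the part of this list in the results below was not tested. In bulk RNA, fewer cells of a kind and less RNA per cell cannot be told apart.

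**Figure D1:**
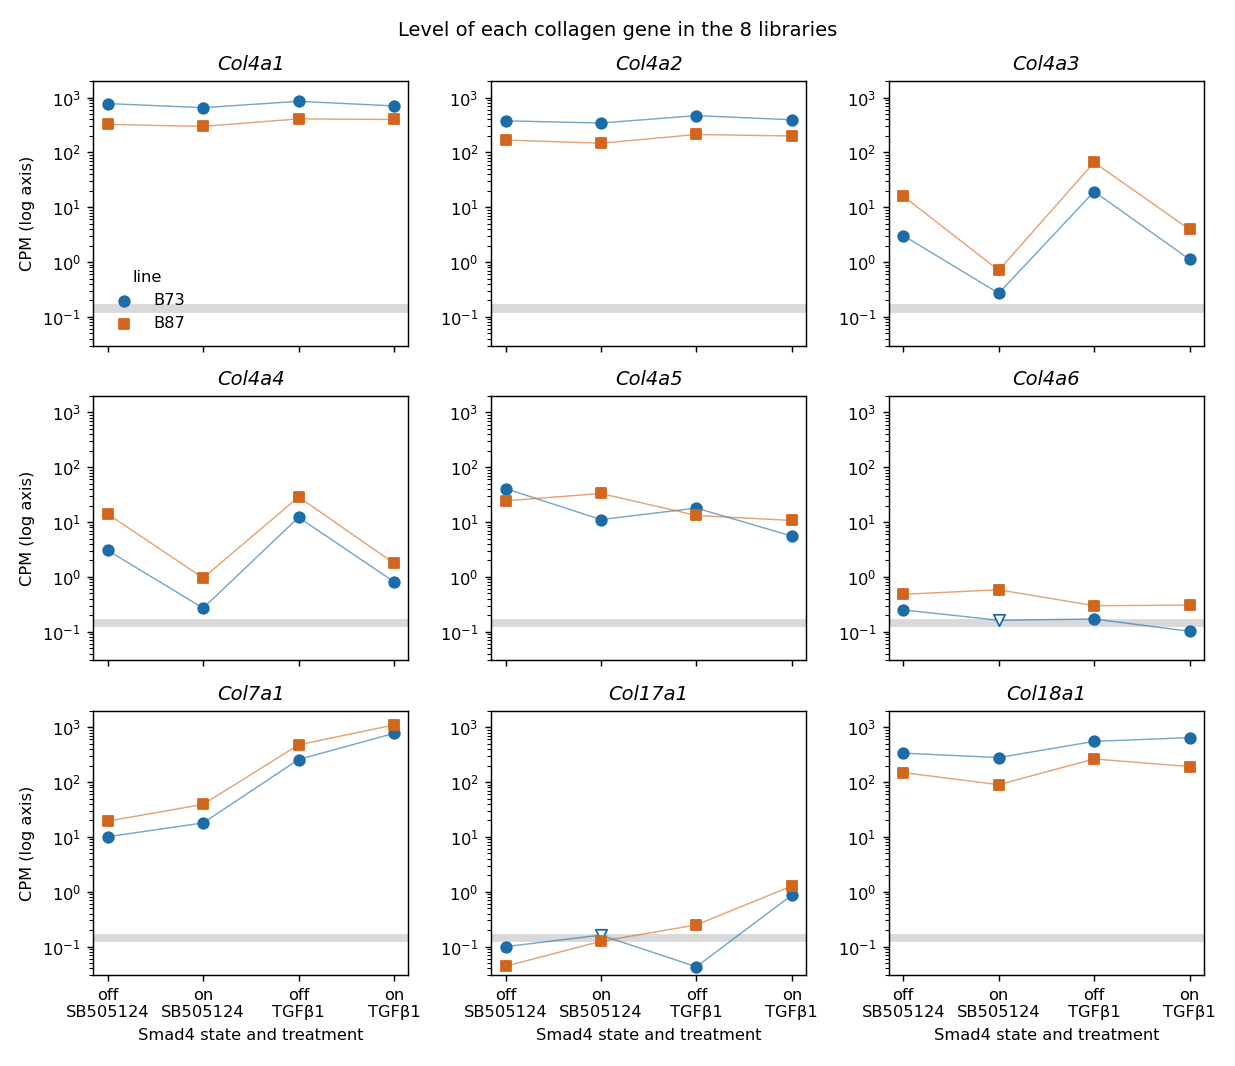
Level of each collagen gene in CPM (log axis) against Smad4 state and treatment, with circles for line B73 and squares for line B87. The grey band spans the detection floor of 0.125 to 0.162 CPM, and open triangles at the floor mark libraries with 0 counts. *Col7a1* climbs from 10.1 to 774 CPM in B73, and *Col4a3* and *Col4a4* drop in every Smad4-on library.

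The anchoring fibril gene *Col7a1* showed the largest response to TGFβ1 of the 9 genes, and Smad4 raised it further. With SB505124 it lay at 10.1 CPM in B73 and 19.4 CPM in B87 when Smad4 was off, and at 18 and 39.3 CPM when Smad4 was on. With TGFβ1 it lay at 258 CPM in B73 and 478 CPM in B87 when Smad4 was off, and at 774 and 1100 CPM when Smad4 was on. All 4 TGFβ1 libraries therefore stood above all 4 SB505124 libraries, and within TGFβ1 the Smad4-on values stood above the Smad4-off values of either line.

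TGFβ1 raised *Col7a1* by 5.11 ± 0.165 (log2 fold change ± SE), or 34.5-fold, with Smad4 on (edgeR quasi-likelihood adjusted p = 2.44e-05) and by 4.65 ± 0.165, or 25-fold, with Smad4 off (edgeR adjusted p = 6.96e-05). The rise was thus also seen in cells with the *Smad4* hairpin induced, which still held the *Smad4* RNA given above. Smad4 restoration raised *Col7a1* by 1.4 ± 0.139, or 2.65-fold, under TGFβ1 (edgeR adjusted p = 0.00348), by 1.58 in B73 and 1.21 in B87. Under SB505124 the difference was 0.94 ± 0.155, or 1.92-fold, with an edgeR adjusted p of 0.0398 that passed while the fold did not reach 2. The difference between these responses, the Smad4 by TGFβ1 interaction, was 0.46 ± 0.206 (edgeR adjusted p = 0.499), so a larger Smad4 effect under TGFβ1 was not shown. Without the line in the edgeR model (no replicate block) the adjusted p for Smad4 under TGFβ1 became 0.347, and by DESeq2 without the line 0.0455, whereas both TGFβ1 responses stayed called in every alternative run.

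These changes moved *Col7a1* through most of the range of expressed genes. Ranked by CPM per kb of exon among the 14286 tested genes with a known length, it stood at place 10952 in B73 and 9695 in B87 with Smad4 off and SB505124. With Smad4 on and TGFβ1 it stood at place 612 in B73 and 386 in B87. Relative to *Col4a1*, also per kb, its level went in B73 from 0.00942 to 0.798 and in B87 from 0.0434 to 2.01 between these same conditions. In B87 with Smad4 on and TGFβ1 it was the most abundant of the 9 genes, at 48.6% of their summed CPM per kb, whereas in B73 it was in the third place at 23.4%.

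*Col17a1*, which encodes the transmembrane collagen of the hemidesmosome, was almost silent except in Smad4-on cells given TGFβ1. It had 17 counts in B73 and 25 in B87 in that group, or 0.868 and 1.27 CPM. In the other 6 libraries it had 2, 0 and 1 counts in B73 and 1, 3 and 5 counts in B87. Only 1 of these 6, the B87 Smad4-off TGFβ1 library, stood above the floor, so the pooled counts are given with their exact counting intervals at 95% confidence. The ratio of TGFβ1 to SB505124 with Smad4 on was 15.2 (4.86 to 76.6) and that of Smad4 on to off under TGFβ1 was 7.75 (3.28 to 22.3). These ratios and intervals pool the 2 lines and rest on the group through which *Col17a1* passed the filter. They describe the counts, and no test is read from them.

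*Col4a3* and *Col4a4*, the paired genes on chromosome 1, went the opposite way to *Col7a1* with Smad4 and the same way with TGFβ1. With SB505124, *Col4a3* lay at 3.04 CPM in B73 and 15.9 CPM in B87 when Smad4 was off, and at 0.27 and 0.707 CPM when Smad4 was on. With TGFβ1, *Col4a3* lay at 19.3 CPM in B73 and 65.7 CPM in B87 when Smad4 was off, and at 1.12 and 3.93 CPM when Smad4 was on. Within each treatment both Smad4-on values stood below both Smad4-off values, in SB505124 at only 5 and 17 counts.

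*Col4a4* followed its neighbour. It lay at 3.04 and 14 CPM in B73 and B87 with Smad4 off and SB505124, at 0.27 and 0.957 CPM with Smad4 on and SB505124, at 12.2 and 28.7 CPM with Smad4 off and TGFβ1, and at 0.817 and 1.78 CPM with Smad4 on and TGFβ1. As for *Col4a3*, Smad4-on and Smad4-off values did not overlap within either treatment.

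Smad4 restoration lowered *Col4a3* under TGFβ1, with a log2 change of -4.1 ± 0.218, or 17.2-fold (edgeR adjusted p = 0.00084), and *Col4a4* with a log2 change of -4.01 ± 0.311, or 16.1-fold (edgeR adjusted p = 0.0014). Under SB505124 the log2 changes were -4.17 ± 0.279 for *Col4a3* (edgeR adjusted p = 0.00316) and -3.68 ± 0.345 for *Col4a4* (edgeR adjusted p = 0.00569), so the fall was also called where the receptor kinase was inhibited. The interaction was 0.07 ± 0.32 for *Col4a3* and -0.33 ± 0.491 for *Col4a4*, with edgeR adjusted p of 0.967 and 0.871. TGFβ1 raised *Col4a3* by 2.3 ± 0.19, or 4.94-fold, with Smad4 off (edgeR adjusted p = 0.00105) and by 2.37 ± 0.311, or 5.18-fold, with Smad4 on (edgeR adjusted p = 0.00179). *Col4a4* rose with Smad4 off, by 1.46 ± 0.257 (edgeR adjusted p = 0.0139), and its 1.13 ± 0.403 with Smad4 on did not pass (edgeR adjusted p = 0.0717).

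Without the line in the edgeR model none of these *Col4a3* and *Col4a4* calls remained, with adjusted p of 0.227 and 0.201 for Smad4 under TGFβ1, 0.663 and 0.634 under SB505124, 0.355 and 0.537 for TGFβ1 with Smad4 off, and 0.23 for *Col4a3* with Smad4 on. DESeq2 without the line kept the 4 Smad4 calls, with adjusted p from 0.000394 to 0.00481. It lost the TGFβ1 calls, with DESeq2 adjusted p of 0.126 (*Col4a3*) and 0.479 (*Col4a4*) with Smad4 off, and 0.0626 for *Col4a3* with Smad4 on. Leaving out the B87 Smad4-on SB505124 library ended the *Col4a3* response to TGFβ1 with Smad4 on (adjusted p = 0.0547) and the *Col4a4* fall under SB505124 (adjusted p = 0.0585), and leaving out either Smad4-off TGFβ1 library ended the *Col4a4* response to TGFβ1 (adjusted p = 0.099 without B73 and 0.0617 without B87). The summed endothelial list lay at 2.3, 0.756, 7.24 and 3.52 CPM in B73 and at 5.36, 2.75, 26.1 and 4.95 CPM in B87, in the order Smad4 off and on with SB505124, then off and on with TGFβ1, and was highest where these genes were. *Kdr* was likewise highest with Smad4 off and TGFβ1, at 39, 7, 141 and 10 counts in B73 and 114, 60, 506 and 51 in B87, whereas *Cdh5* was highest with Smad4 on and TGFβ1, at 54 and 40 counts, 78.3% and 41.2% of the list there. Of its 7 genes 3 were at or under the floor in every library, *Emcn* had 0 counts and *Pecam1* at most 5, and the list's part in the result was not tested.

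The balance within the pair changed with treatment. Per kb, *Col4a3* stood to *Col4a4* as 1.06 (0.734 to 1.54, 95% counting interval) in B73 and 1.2 (1.03 to 1.41) in B87 with Smad4 off and SB505124. With Smad4 off and TGFβ1 the ratio was 1.68 (1.45 to 1.96) in B73 and 2.43 (2.21 to 2.69) in B87, so it was higher in both lines, by more than the counting error in B87. The intervals cover counting error only, and a lncRNA on the opposite strand, C430014B12Rik, overlaps 563 exonic bases of *Col4a3* with 1 to 4 counts of its own.

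*Col4a1* and *Col4a2*, which encode the ubiquitous collagen IV chains, were the bulk of collagen IV in every library and changed little. *Col4a1* lay at 776, 653, 853 and 704 CPM in B73 and at 324, 298, 408 and 398 CPM in B87, in the order Smad4 off and on with SB505124, then Smad4 off and on with TGFβ1. *Col4a2* lay at 376, 343, 468 and 393 CPM in B73 and at 168, 147, 212 and 199 CPM in B87 in that order. The lines did not overlap, and within a line no value differed from another by as much as 2-fold. With Smad4 on, *Col4a2* differed between TGFβ1 and SB505124 by a log2 change of 0.32 ± 0.0863, or 1.25-fold (edgeR adjusted p = 0.0299), which is under the 2-fold rule, and *Col4a1* by 0.27 ± 0.113 (edgeR adjusted p = 0.115). For Smad4 under TGFβ1 the changes were -0.15 ± 0.113 and -0.17 ± 0.0861.

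Their ratio was held in a narrow range. Per kb, *Col4a1* stood at 1.59 to 1.83 times *Col4a2* in all 8 libraries. Together they made up 88.5% to 99.3% of the summed collagen IV level per kb. The lowest share was in B87 with Smad4 off and TGFβ1, where *Col4a3* made up 6.73% and *Col4a4* 2.76%, and the share of *Col4a3* there was 0.46% with Smad4 on.

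**Figure D2:**
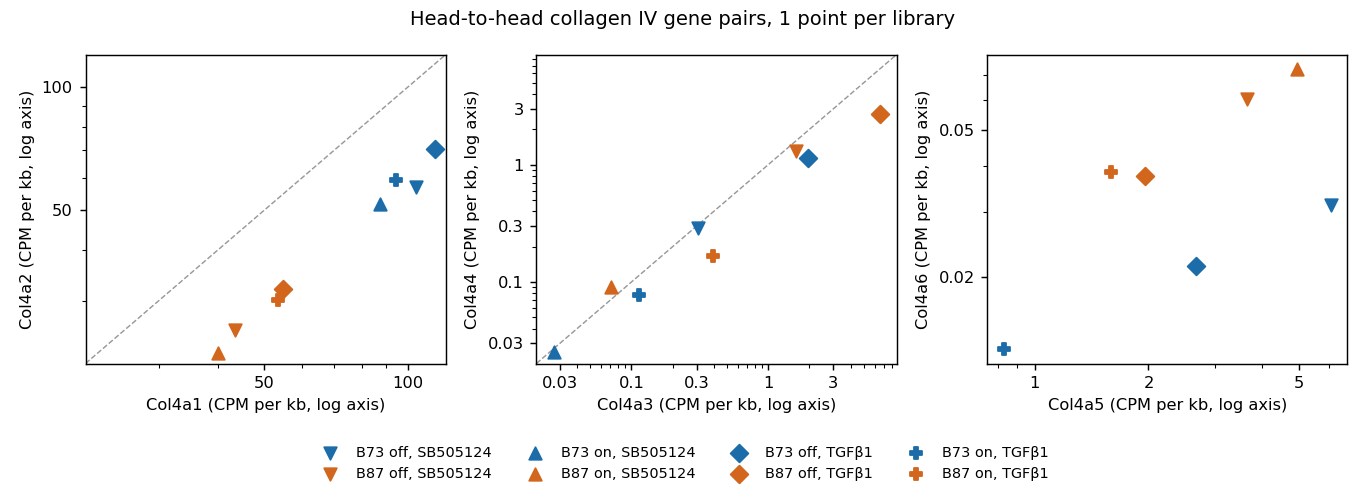
Levels of the 3 head-to-head collagen IV pairs in CPM per kb of exon (both axes log), 1 point per library, with colour for the line, shape for the condition and a dashed line at equal level in the first and second panels. *Col4a1* and *Col4a2* sit on a narrow band at ratios of 1.59 to 1.83, and the *Col4a3* and *Col4a4* points spread from 5 counts each in B73 with Smad4 on and SB505124 to 1319 and 577 in B87 with Smad4 off and TGFβ1. The third panel leaves out the B73 Smad4-on SB505124 library, where *Col4a6* had 0 counts.

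*Col4a5*, whose chain can pair with those of *Col4a3* and *Col4a4* or with that of *Col4a6*, behaved differently in the 2 lines. In B73 it lay at 40.8 CPM with Smad4 off and 11.1 CPM with Smad4 on under SB505124, and at 18 and 5.56 CPM under TGFβ1. In B87 it lay at 24.4 and 33.2 CPM under SB505124, and at 13.2 and 10.7 CPM under TGFβ1. The Smad4 change was -1.87 and -1.67 on the log2 scale in B73, but 0.44 and -0.29 in B87, and the difference between lines was 1.91 ± 0.244 (edgeR adjusted p = 0.0406, B87 minus B73). Over both lines Smad4 was not called, at -0.99 ± 0.552 under TGFβ1 (edgeR adjusted p = 0.328) and -0.64 ± 0.527 under SB505124 (edgeR adjusted p = 0.683). TGFβ1 values lay under the SB505124 values in each line and Smad4 state, with changes of -1.42 ± 0.546 (edgeR adjusted p = 0.0875) and -1.08 ± 0.519 (edgeR adjusted p = 0.227) that did not pass. With only the 4 libraries compared in the fit, both passed, with adjusted p of 0.00139 and 0.00164. These changes moved with single libraries. With Smad4 on the change was -2.083 without the B73 Smad4-on SB505124 library, which passed (adjusted p = 0.0251), and -0.352 without its B87 counterpart. With Smad4 off it ran from -1.674 without the B73 Smad4-off TGFβ1 library to -0.223 without the B73 Smad4-off SB505124 library.

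*Col4a6* was near the floor, with 5, 0, 4 and 2 counts in B73 and 11, 14, 6 and 6 in B87, in the order given for *Col4a1*. Pooled ratios between groups ran from 0.616 to 0.886, and all 4 of their counting intervals held 1, so no difference was detectable at this depth. *Col4a6* was below *Col4a5* per kb in all 8 libraries, with *Col4a5* at 41.5 to 194 times *Col4a6* where the latter had 4 or more counts.

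*Col18a1*, the source of endostatin, lay at 337, 280, 553 and 646 CPM in B73 and at 149, 89.7, 264 and 192 CPM in B87, in the same order. TGFβ1 libraries stood above their SB505124 partners in both lines and both Smad4 states. With Smad4 on the rise was 1.16 ± 0.174, or 2.23-fold (edgeR adjusted p = 0.00307), and with Smad4 off the change of 0.78 ± 0.173, or 1.71-fold, passed the adjusted p (0.0294, edgeR) but not the 2-fold rule. Smad4 changes were -0.11 ± 0.172 with TGFβ1 (edgeR adjusted p = 0.736) and -0.49 ± 0.173 with SB505124 (edgeR adjusted p = 0.295), and in B73 and B87 the first went in opposite directions, 0.22 and -0.46. Without the line the adjusted p of the TGFβ1 response was 0.38, and without the B73 Smad4-on TGFβ1 library the change was 0.91, under 2-fold.

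**Figure D3:**
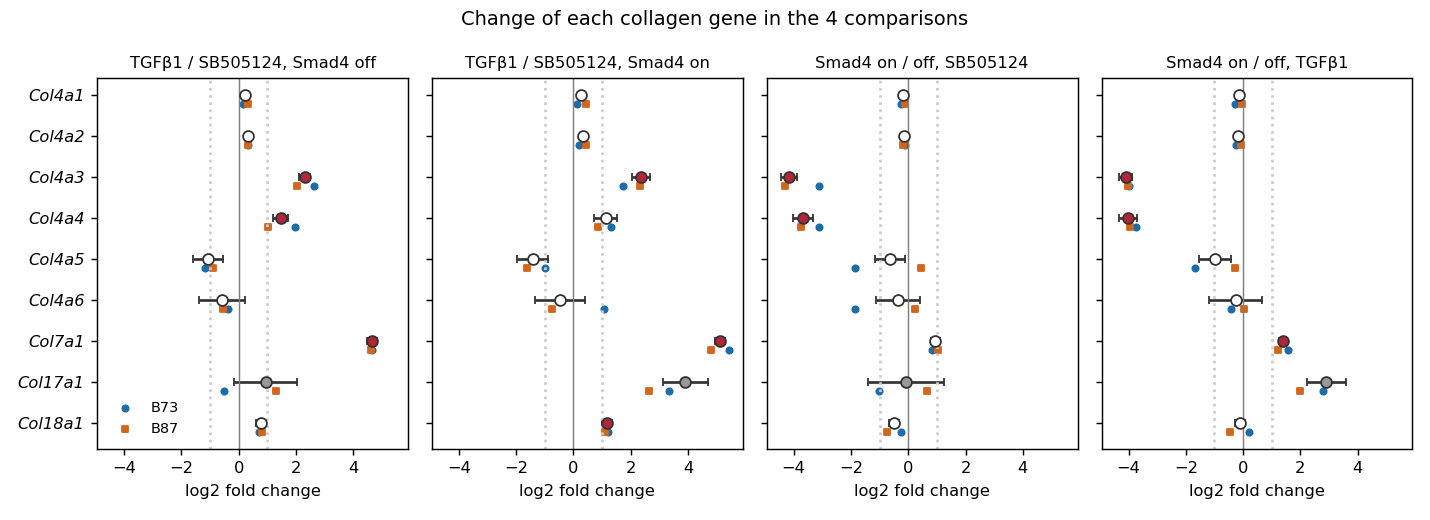
Log2 fold change of each gene in the 4 comparisons, fitted over both lines, with standard error bars; filled red circles passed the adjusted p of 0.05 and the 2-fold rule, grey marks *Col17a1*, which is not counted as called, and small marks below give the change in B73 (circle) and B87 (square). Dotted lines mark 2-fold. *Col7a1* stands at 4.65 and 5.11 for TGFβ1, and *Col4a3* and *Col4a4* stand between -3.68 and -4.17 for Smad4.

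Counted over the 8 genes other than *Col17a1*, TGFβ1 against SB505124 with Smad4 on gave 3 called higher (*Col7a1*, *Col4a3* and *Col18a1*) and 0 lower, where 5.62% of all tested genes were called higher and 8.31% lower. With Smad4 off it gave 3 higher (*Col7a1*, *Col4a3* and *Col4a4*) and 0 lower, against 3.11% and 2.82% of all genes. The median log2 change of the 8 genes was 0.72 with Smad4 on and 0.55 with Smad4 off, beside -0.019 and -0.017 for all genes. Smad4 on against off under TGFβ1 gave 1 higher (*Col7a1*) and 2 lower (*Col4a3* and *Col4a4*), against 1.31% and 1.8% of all genes. Under SB505124 it gave 0 higher and the same 2 lower, against 0.636% and 0.455%. The interaction gave 0 called in edgeR, 0 at an unadjusted p under 0.05, and 0 with DESeq2, against 0.0559% and 0.133% of all genes. These comparisons share groups of libraries, so they are not independent of each other.

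Summed over the 9 genes, counts rose from 0.163% of the library in B73 with Smad4 off and SB505124 to 0.233% with Smad4 on and TGFβ1, and from 0.0747% to 0.178% in B87. The sum was lowest in both lines with Smad4 on and SB505124, at 0.131% and 0.0626%. Per kb, *Col4a1* was 47.9% of the sum in B73 and 47.5% in B87 in that group, and 29.3% and 24.2% with Smad4 on and TGFβ1. With Smad4 off and TGFβ1 *Col7a1* made up 8.52% of the sum in B73 and 25.5% in B87.

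**Figure D4:**
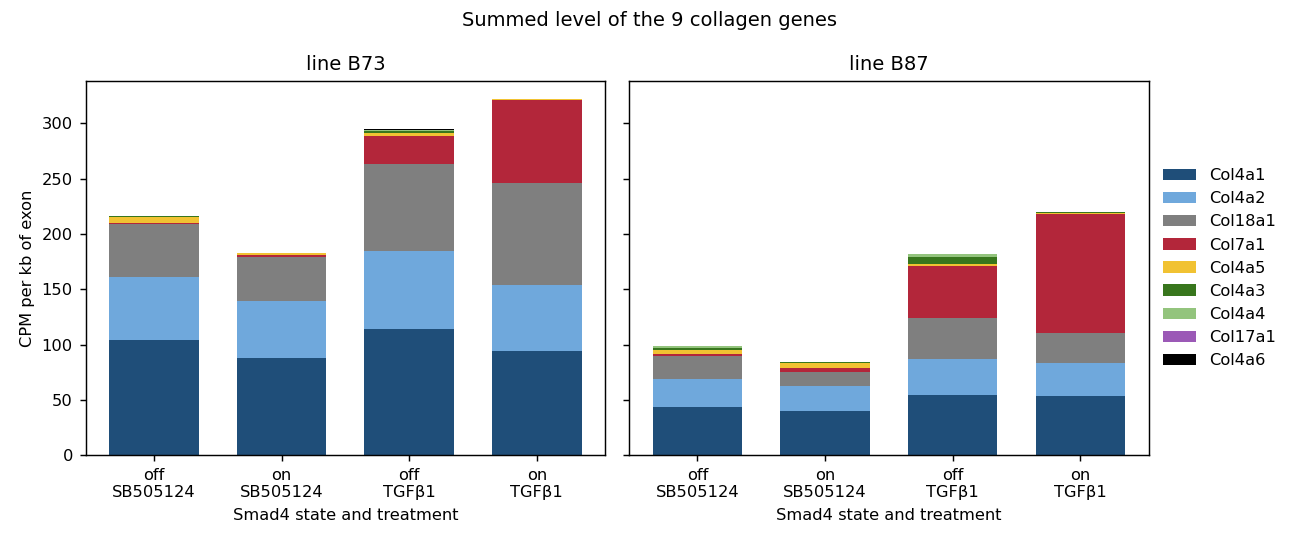
Summed level of the 9 collagen genes in CPM per kb of exon (bars start at 0), stacked by gene, for each condition in lines B73 and B87. The *Col7a1* block takes 23.4% of the bar in B73 and 48.6% in B87 with Smad4 on and TGFβ1, and under 5% in each SB505124 bar.

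The 2 lines differed in several of these genes across all conditions. *Col4a1*, *Col4a2* and *Col18a1* were lower in B87 than in B73, by 2.1-fold, 2.18-fold and 2.66-fold, and *Col4a3* and *Col4a4* were higher, by 3.85-fold and 3.01-fold (edgeR adjusted p from 8.55e-05 to 0.00352). *Col7a1* was 1.8-fold higher in B87 (edgeR adjusted p = 0.00198), under the 2-fold rule. This made 2 higher and 3 lower, against 3.87% and 4.5% of all genes. As each line is the culture of 1 tumor, the difference is between these lines. Between the lines the TGFβ1 response differed in 0 of the 9 genes by edgeR and by DESeq2, where 0% of all genes were called in either direction, and 1 gene passed at an unadjusted p under 0.05. That gene was *Col4a4*, at -0.92 ± 0.284. The Smad4 response differed in 1, *Col4a5*, against 0.196% of all genes in each direction. For that response 2 of the 9 genes passed at an unadjusted p under 0.05, *Col4a5* and *Col18a1* (-0.57 ± 0.119). The share of all genes at an unadjusted p under 0.05 is not given here, so nothing is read from these unadjusted counts.

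Across the 8 libraries the pattern of *Col4a1* was most like that of *Col4a2* (Pearson r = 0.995 on log2 CPM) and that of *Col4a3* most like that of *Col4a4* (r = 0.983), each pair being nearest to each other among the genes with a mean of at least 0 on the log2 CPM scale. The nearest genes to *Col7a1* were *Maff* (r = 0.997), *Rhob* (0.995) and *Dlgap4* (0.995). After its partner, *Col4a1* was nearest to *Col5a2* (r = 0.994), and *Col18a1* was nearest to *Atg9b* (0.977). *Col4a5* did not follow its own partner *Col4a6* (r = 0.578), which had few counts. These are descriptions over 8 libraries that share lines and treatments.

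Genes that assemble, bind or cut these collagens were described from 4 lists. Of 20 tested genes for collagen assembly and crosslinking, TGFβ1 in Smad4-on cells had 8 called higher and 2 lower, against 5.62% and 8.31% of all genes, and their median log2 change was 0.78, beside the -0.019 of all genes. They included *Lox* (4.46 ± 0.466) and *Loxl2* (2.8 ± 0.174), lysyl oxidases that crosslink collagens, and *Tll1* (3.13 ± 0.28), a BMP1-family protease; BMP1-family proteases process procollagen VII. Those lower were *Pcolce* (-1.4 ± 0.308) and *P4ha3* (-1.21 ± 0.221). *Lox* had 12 counts in B73 and 1 in B87 with Smad4 on and SB505124, so the size of its change rests on few counts. It passed the filter only through the TGFβ1 libraries, where it was high. No test is read from its calls, which are in the 8 here and in the 4 higher with Smad4 off. With Smad4 off 4 of these 20 were higher and 0 lower, against the 3.11% and 2.82% of all genes called higher and lower. Smad4 under TGFβ1 raised 1 of them past the 2-fold rule, *Tll1*, by 3.56 ± 0.286, against 1.31% of all genes. At smaller changes 3 others passed the adjusted p, *Loxl2* (0.86 ± 0.163), *P4ha2* (0.83 ± 0.101) and *Plod1* (0.46 ± 0.106), the last 2 being collagen hydroxylases. Over all 14301 genes 504 passed that p as higher at any size of change, 188 of them past 2-fold.

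Of 20 other basement membrane components, 5 were called higher with TGFβ1 in Smad4-on cells, *Smoc2* among them, and 4 lower, at a median of -0.32. Over all genes 5.62% were called higher and 8.31% lower. *Smoc2* passed the filter only through its high group, so the 5 is not compared with that share. A further 5 of the 20 passed the adjusted p as lower at changes under 2-fold. Over all 14301 genes 2516 passed that p as lower at any size of change, 1189 of them past 2-fold. *Lamb3*, a chain of laminin-332, to which collagen VII binds, rose by 2.57 ± 0.172 with TGFβ1 in Smad4-on cells and by 1.98 ± 0.169 with Smad4 under TGFβ1. *Nid2*, which links laminin to collagen IV, had a log2 change of -3.01 ± 0.549 with TGFβ1 in Smad4-on cells. Its counts in that TGFβ1 group were 20 in B73 and 1 in B87. Under TGFβ1, Smad4 raised *Lamb3* and *Fbln2* past the 2-fold rule, where 1.31% of all genes were called higher. None of the 20 was lower past that rule, against 1.8%. *Smoc2* had 129 counts in B73 and 20 in B87 with Smad4 on and TGFβ1, and at most 3 in any other library. Like *Col17a1* it passed the filter only through that group. No test is read from its calls. *Smoc2* was also called higher for Smad4 under TGFβ1 and is left out of the genes named for that comparison. At smaller changes 4 passed the adjusted p as lower, the laminin chains *Lama5* (-0.59 ± 0.0882), *Lamc1* (-0.52 ± 0.0828) and *Lamb2* (-0.41 ± 0.0824) and the proteoglycan *Agrn* (-0.79 ± 0.158). Over all 14301 genes 469 passed that p as lower for Smad4 under TGFβ1 at any size of change, 258 of them past 2-fold.

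Of 14 tested receptors and hemidesmosome genes, 2 were higher with TGFβ1 in Smad4-on cells and 2 were lower, at a median of -0.15. Over all genes 5.62% and 8.31% were called higher and lower in this comparison, and nothing is read from counts of 2 of 14. *Itga2* and *Itgb1*, subunits of the collagen-binding integrin, rose by 3.2 ± 0.573 and 1.31 ± 0.0818. *Itga1*, the collagen IV-binding alternative to *Itga2*, and *Bcam*, a laminin receptor, had log2 changes of -2.49 ± 0.194 and -1.69 ± 0.138. Of 13 proteases and inhibitors, whose median was -0.16, 3 were higher, *Timp3* (2.54 ± 0.323), *Timp1* (1.96 ± 0.192) and *Mmp14* (1.11 ± 0.108), and the stromelysin *Mmp3* was lower at -7.56 ± 0.468. *Mmp3* had 1 count in B73 and 11 in B87 with Smad4 on and TGFβ1, so the size of its change rests on few counts. The changes named for these receptors, proteases and inhibitors passed edgeR's adjusted p of 0.05 and the 2-fold rule.

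**Figure D5:**
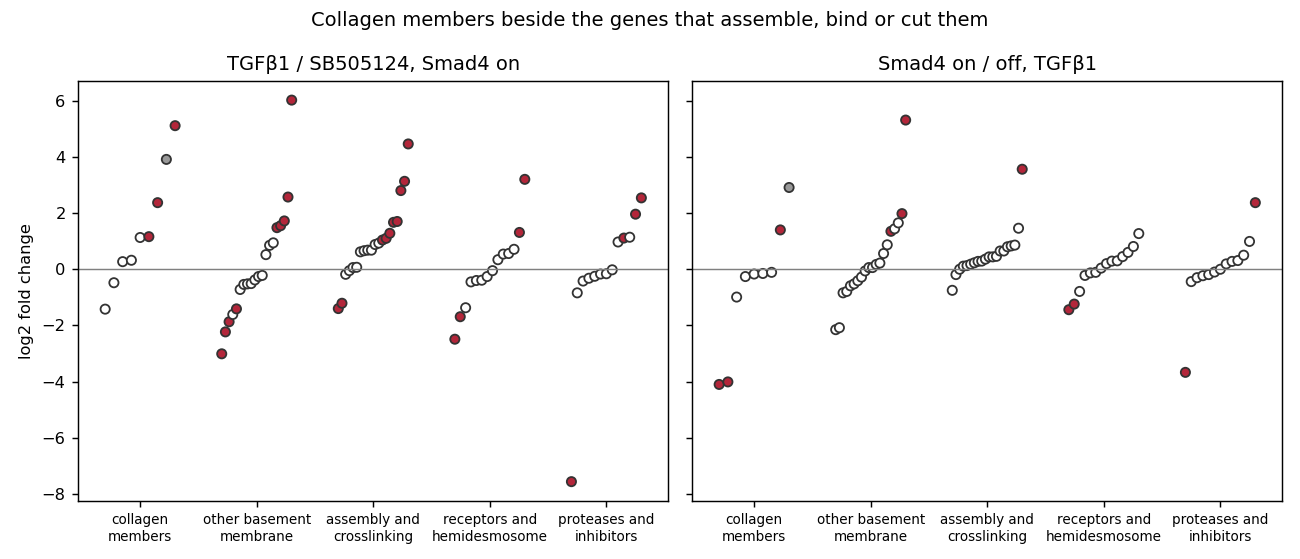
Log2 fold change of the 9 collagen members beside 4 lists of related genes, for TGFβ1 against SB505124 with Smad4 on (left) and for Smad4 on against off under TGFβ1 (right), 1 point per tested gene, red where called and grey for *Col17a1*, which is not counted. In the left panel called genes lie on both sides of 0 in each related list, from -7.56 (*Mmp3*) upward, and the called collagen members lie above 0. *Smoc2* is drawn red in each panel and *Lox* in the left panel, though no test is read from either.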

How the data were processed

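RNA-seq of 8 libraries from mouse PDAC lines was used, grouped by the line, Dox state and treatment in the labels. Libraries were stranded, poly(A)-selected and read as 75-base single ends. Per the labels, the authors used Trimmomatic 0.36, STAR 2.5.3a, GRCm38 (mm10), featureCounts 1.6.3 and FastQC 0.11.5, and deposited raw counts per gene with no pooling. Counting settings for strand and multiple alignments are not given in the sources used here.

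The deposited counts were tested with edgeR 4.0.16 in R 4.3.3 (TMM normalization, filterByExpr, quasi-likelihood test) in a model of group and line over all 8 libraries. A gene was called at a Benjamini-Hochberg adjusted p under 0.05 over all 14301 genes and a change over 2-fold, the study's thresholds, though the study used DESeq2 and named no covariate. SE is the log2 change over the square root of F. Line terms added to that model left 2 residual degrees of freedom. The lines pair libraries across groups: their deviations from group means correlated at 0.642 to 0.774 over 6 pairs of groups. Log2 CPM had a prior count of 2. Lengths came from GENCODE M21 exons. Of the 53274 genes of the count table that were also in GENCODE M21, 99.92% overlapped their GENCODE position. On simulated data for Smad4 under TGFβ1 with 14301 genes, 92.5% of 200 genes changed by 2 on the log2 scale were recovered, with 1.07% false among the calls. The simulated lines differed by a constant only, and the spread followed its trend with the mean level. These rates therefore hold for data that follow the model, and lines that respond unequally were not simulated. Intervals, exact and at 95% confidence, and floors cover counting error only, since PCR copies are not marked.

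Alternatives were DESeq2 1.42.0 with and without the line, its size factors, other filters, no fold rule, only the libraries compared and each library left out. The members, lists and motifs were chosen with earlier results of these data known. Named genes are the 9 members, *Smad4*, up to 3 called genes each way per list, markers at the extremes and the 3 genes most like each member. Amino acid sequences were not used here, and some items of the model and of the named-gene rule are not reported here.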

Additional observations from a re-analysis of the deposited data

Results flagged for a closer look

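*Col4a5* drew attention because its Smad4 response differed between the lines. The difference, B87 minus B73, was 1.91 ± 0.244 on the log2 scale (edgeR adjusted p = 0.0406), from a model with 2 residual degrees of freedom. In B73 the Smad4-on level was lower in both treatments, at changes of -1.87 and -1.67, and in B87 the changes were 0.44 and -0.29. Other technical or biological differences between the 2 cultures cannot be told apart from the line, since each line gave 1 library per condition.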

How the results depend on the processing

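Over all alternatives, 681 of the member changes kept their direction and call, 20 lost a call, 13 gained one and 35 changed sign, none of the last being a call in the reported fit. Under edgeR without the line (no replicate block), the test called 0 members for Smad4 and 1 higher (*Col7a1*) for each TGFβ1 comparison; DESeq2 without the line also kept 1 for each TGFβ1 comparison and all Smad4 calls, and the cause was not tested. These counts are over all 9 members. With no filter on low counts 2 were higher for Smad4 under TGFβ1 (*Col7a1* and *Col17a1*, the latter not read as a test) and 1 lower for each TGFβ1 comparison, and the same numbers came from only the libraries compared. At 10 counts in every library *Col4a3* and *Col4a4* were not tested, leaving 0 lower for Smad4 in either treatment and 2 and 1 higher for TGFβ1 with Smad4 on and off. Without the fold rule 1 (*Col7a1*) was higher for Smad4 under SB505124.

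Sign changes of *Col18a1* were to 0.036 (edgeR) and 0.039 (DESeq2) for Smad4 under TGFβ1 without the line, and to 0.008 (DESeq2) and 0.007 (its size factors) for the line difference in TGFβ1 response. With each library left out, members called lower ran from 1 to 2 for Smad4 under SB505124 and from 0 to 1 for TGFβ1 with Smad4 on. Log2 changes for Smad4 under TGFβ1 ran from -0.32 to 0.006 (*Col4a1*), -0.998 to 0.146 (*Col4a6*) and -0.35 to 0.109 (*Col18a1*), and under SB505124 from -1.61 to 0.122 (*Col4a5*), -5.328 to 0.228 (*Col4a6*) and -3.26 to 0.959 (*Col17a1*). Those for TGFβ1 ran from -1.066 to 4.491 with Smad4 on and -1.274 to 0.133 with Smad4 off (*Col4a6*), and from -0.307 to 1.987 with Smad4 off (*Col17a1*). Interactions ran from -0.133 to 0.193 (*Col4a1*), -0.105 to 0.09 (*Col4a2*), -0.402 to 0.315 (*Col4a3*), -0.886 to 0.033 (*Col4a4*), -1.161 to 0.699 (*Col4a5*) and -0.568 to 5.1 (*Col4a6*). A lone library left in a group was assumed to vary like the others. Line comparisons were recomputed only with DESeq2, its size factors and no filter. Depth limits *Col17a1* and *Col4a6*, and 2 libraries per group limit the rest.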
